A study of Mus musculus with 8 samples.

Results

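The 35 genes described here encode lysosomal hydrolases, their helper proteins and proteins of the lysosomal membrane other than cathepsins. They were chosen by symbol from a named list, with earlier results of these data known, and all 35 were found among the 22558 gene symbols of the deposited tables. RNA was profiled in 8 mouse libraries, 4 of retinal microglia, numbered 1 to 4, and 4 of macrophages that had entered the retina, numbered 5 to 8. All 8 carried the same alleles, Msi1-CreERT2/+, a tamoxifen-inducible Cre recombinase named for the Msi1 gene, and R26R-DTA/+, which makes diphtheria toxin A in cells where Cre has acted. Retinas came from mice of about 5 months, C57BL/6 mixed with 129, on day 7 after the injury, so neither an uninjured retina nor mice without the toxin allele enter the comparison. Titles of the macrophage libraries begin with GFP, but no GFP allele is named in the genotype, and how the cells were separated is not given in the sources used here. Nothing says whether libraries came from separate animals or pools, and every p-value given below therefore speaks only of the scatter among these 8 libraries, part or all of which may be technical. In bulk RNA of this kind, fewer cells carrying a transcript and less transcript per cell cannot be told apart.

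Lysosomes are acidic organelles in which macrophages break down what they have engulfed. Glycosidases, sulfatases, lipases, peptidases and phosphatases do the cutting, small activator proteins present lipids to them, and a heavily glycosylated membrane holds the acid and passes the products back to the cytosol. In injured retina, microglia and infiltrating macrophages both clear dead cells, and loss of single members of this set causes lysosomal storage diseases. The question here is which of these transcripts set the infiltrating cells apart from the resident ones.

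The labels were checked against defining genes. Sall1, a transcription factor of microglia, lay from 8.61 to 26.8 FPKM in microglia and at most at 0.0352 in macrophages, and Ccr2, a chemokine receptor of monocytes, from 2.64 to 99.4 FPKM in macrophages and at most at 1.53 in microglia. Of the 10 microglial markers 6 lay apart between the populations, but Tmem119 (179 to 339 FPKM in microglia, 106 to 365 in macrophages), Cx3cr1, Fcrls and Slc2a5 overlapped. Among the monocyte markers, Fn1 lay at 15.9 to 70.5 FPKM in microglia and 4.29 to 43.4 in macrophages, against the direction of the 6 called ones. Values are FPKM, the deposited unit scaled to transcript length and library size, which summed to between 207077 and 512049 per library. Microglia 1 was the shallowest library, at an estimated 11.6 M fragments, and the other 7 had 18.8 to 24.8 M. Microglia 2 held 5992 genes at 1 FPKM or more, against 8165 to 10282 in the others. Y-linked transcripts summed to between 11.7 and 25.8 FPKM in microglia 1 to 3, but to 0.0533 in microglia 4 and at most 1.97 in macrophages, so Y-linked RNA runs partly along the comparison. Haemoglobin transcripts summed to 3211 FPKM in microglia 3 and to at most 227 elsewhere. Whether these library differences take part in the results below was not tested, except where a value with the Y-linked term or without a library is given.

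Plbd1 and Acp5 were higher and Arsb was lower in infiltrating macrophages, and the other 32 lysosomal genes did not pass the test. A gene is called where limma, fitted on log2(FPKM + 1) across all 9352 genes that reached 1 FPKM in 4 or more libraries, gave a Benjamini-Hochberg adjusted p below 0.05. All 35 genes passed that filter. Plbd1 and Acp5 passed it through the macrophage libraries, since among microglia only microglia 4 reached 1 FPKM for either gene. Here 2 of 35 were called higher, against a background of 1.65% of all tested genes, and 1 of 35 lower, against 0.695%. Because the 35 genes were chosen with earlier results of these data known, the shares are set side by side as a description and not as a test. These backgrounds rest on 154 higher and 65 lower calls; without macrophage 6 there were 33 higher and 78 lower among 8776 tested genes, while the counts for the 35 genes stayed at 2 and 1. Differences were negative for 19 and positive for 16 of the 35, with a median of -0.18 on the log2(FPKM + 1) scale, whereas 67.1% of all tested genes were positive, with a median of 0.37. That contrast depends on the processing. The median of the 35 minus that of all tested genes was -0.55 as reported. It was -0.56 after upper-quartile and -0.59 after median-of-ratios scaling. It was -0.095 after quantile normalization, -0.18 with a term for Y-linked expression and -0.28 without the filter. After quantile normalization 4506 of 9352 tested genes and 15 of the 35 were positive, with medians of -0.03 and -0.13. Another 3 genes, Psap, Smpd1 and Tpp1, had an unadjusted p below 0.05 but not an adjusted one, and 15% of all tested genes had such an unadjusted p. For 31 of the 32 genes not called, the 95% confidence interval of the difference reached past 1 log2 unit in at least 1 direction. For 23 of the 32 it lay within 2 log2 units either way.

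**Figure D1:**
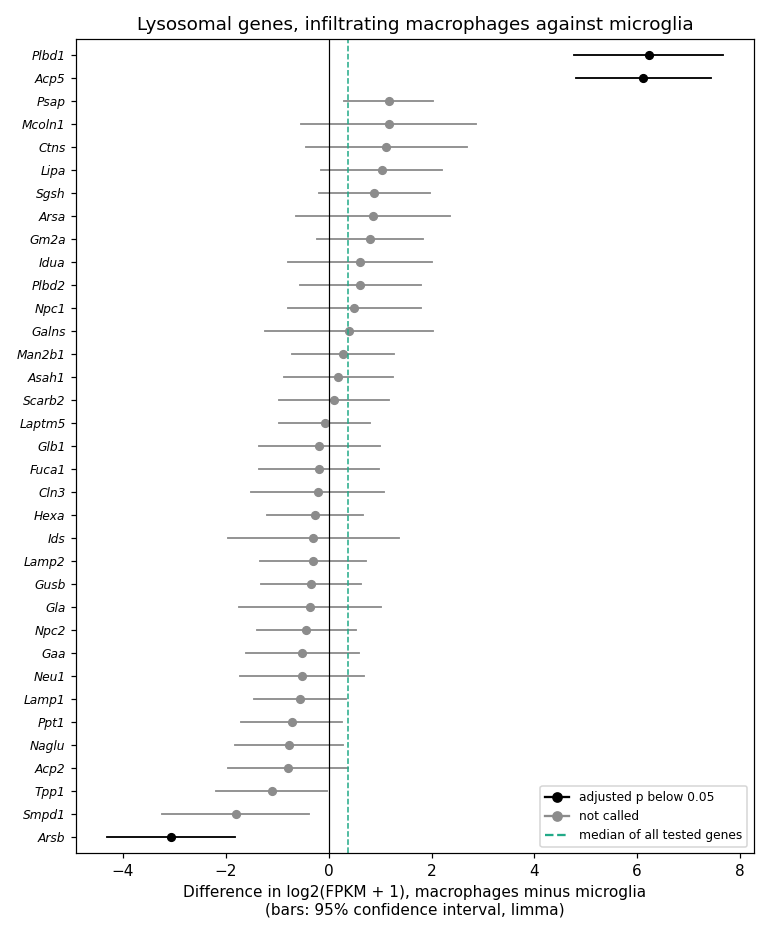
Difference in log2(FPKM + 1), infiltrating macrophages minus microglia, for each of the 35 genes, with the 95% confidence interval from limma; black marks adjusted p below 0.05, and the dashed line is the median of all tested genes, 0.37. Plbd1 (6.22) and Acp5 (6.12) stand far to the right and Arsb (-3.07) is the lowest, while most of the grey intervals cross 0.

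**Figure D2:**
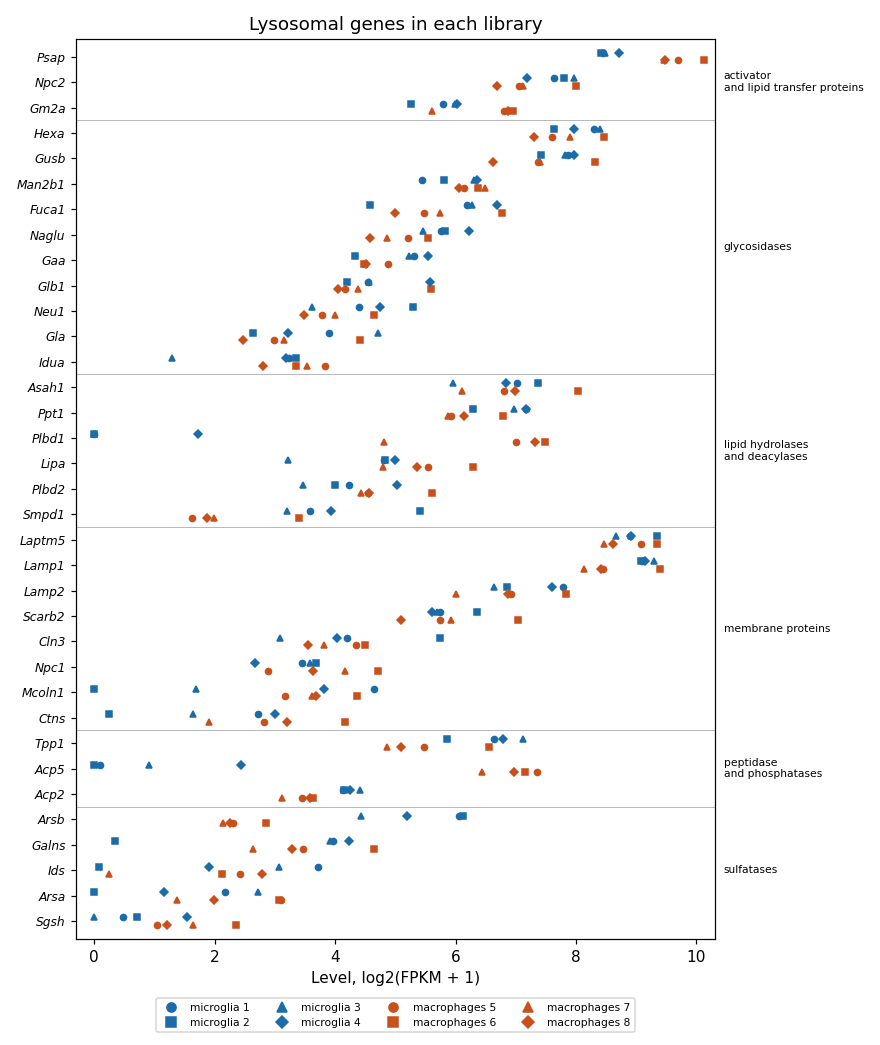
Level of each gene in each of the 8 libraries as log2(FPKM + 1), ordered by role and by mean level; blue symbols are microglia 1 to 4 and orange symbols macrophages 5 to 8. The 2 populations lie fully apart for Plbd1, Acp5 and Psap, higher in macrophages, and for Arsb and Acp2, lower in macrophages.

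Plbd1 encodes a phospholipase B-like protein of the lysosomal lumen, and its transcript was close to absent from microglia. It was listed at 0 FPKM in microglia 1, 2 and 3 and reached 2.30 in microglia 4, whereas the level was 127, 178, 27.0 and 158 FPKM in macrophages 5 to 8. The populations did not overlap, although macrophage 7 stood well below the other 3 macrophage libraries. The difference was 6.22 ± 0.70 on the log2(FPKM + 1) scale (SE, limma adjusted p = 4.41e-06), a size that depends on the pseudocount, since it was 8.81 with a pseudocount of 0.1. The gene was called under each alternative run (adjusted p between 9.48e-07 and 0.0156), also with a term for Y-linked expression, where the difference was 4.79. Its paralogue Plbd2 was present in all 8 libraries, at 17.7, 14.9, 10.1 and 31.5 FPKM in microglia and at 22.4, 47.9, 20.6 and 22.7 in macrophages. Plbd2 libraries overlapped, and the difference of 0.61 ± 0.57 was not called (limma adjusted p = 0.661, interval -0.56 to 1.79). The Plbd2 locus shares 13 bases with that of Sds, which was listed at 0 in all 8 libraries.

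Acp5 encodes tartrate-resistant acid phosphatase, an enzyme known from osteoclasts and from tissue macrophages. It stood at 0.0722, 0, 0.887 and 4.38 FPKM in microglia 1 to 4 and at 162, 141, 85.7 and 124 in macrophages 5 to 8. Every macrophage library was above every microglial one, and microglia 4 was again the highest of the microglial libraries. The difference was 6.12 ± 0.64 (SE, limma adjusted p = 1.26e-06), called under each alternative run (adjusted p between 1.29e-07 and 0.00862) and 4.82 with the Y-linked term. The classical lysosomal acid phosphatase Acp2 went the other way in level, at 16.6, 16.8, 20.3 and 18.0 FPKM in microglia and 9.90, 11.3, 7.71 and 10.98 in macrophages. Its libraries did not overlap either, but the difference of -0.79 ± 0.57 was not called (limma adjusted p = 0.546, interval -1.97 to 0.38). The Acp2 locus shares 2517 bases with that of Ddb2, which stood at 4.18 FPKM or less.

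Levels of markers of other cells are given here beside Plbd1 and Acp5. Of 10 neutrophil markers, 4 were tested and 3 called higher (Retnlg, S100a8 and S100a9), where 1.65% of all tested genes were called higher. These 3 stood at 0 in all 4 microglial libraries. They passed the filter through the macrophage libraries alone and could only be called higher. The list summed to 0.667 to 1.46 FPKM in microglia and 42.8 to 242 in macrophages. Ngp was at 0 in all 8 libraries, Camp at 0 in all 4 macrophage libraries, and Ltf, Elane and Mpo did not exceed 0.678 FPKM there. Of 8 osteoclast markers, 2 were tested and 0 called by limma (1 at an unadjusted p below 0.05), and sums of 2.46 to 17.6 FPKM in microglia and 10.8 to 50.3 in macrophages overlapped. Dcstamp stood at 4.79, 9.55, 0 and 8.27 FPKM in macrophages 5 to 8 and at most at 2.69 in microglia (unadjusted p = 0.0295 in limma, adjusted p = 0.28). Ocstamp stood at 6.51, 4.55, 0 and 4.47 FPKM and Mmp9 at 0, 4.45, 1.96 and 2.30 in macrophages, and both were at 0 in the 4 microglial libraries. Nfatc1 lay at 2.46 to 12.4 FPKM in microglia and 8.502 to 20.7 in macrophages, and Ctsk at 0, 10.9, 0 and 3.60 in macrophages and at most at 3.47 in microglia. Calcr and Oscar did not exceed 0.395 and 0.159 FPKM in any library, and Itgb3 lay at 0.0663 or less in macrophages and at 3.32 or less in microglia. Of 10 dendritic cell markers, 3 were tested, 0 called by limma and all 3 had an unadjusted p below 0.05. The list summed to 2.75 to 34.9 FPKM in microglia and to 65.2, 94.7, 16.7 and 175 in macrophages 5 to 8. Among those not tested, Ccr7 stood at 15.7, 11.1, 0.165 and 62.4 FPKM there. Itgae stood at 11.8, 7.56, 0.197 and 21.3, and Ccl22 at 3.76, 23.9, 0.0779 and 17.6. In microglia Ccr7 and Ccl22 were at 0 and Itgae at 0.672 or less. A gene below 1 FPKM in all 4 microglial libraries is tested only if all 4 macrophage libraries reach 1 FPKM. Ccr7, Itgae, Ccl22 and Ocstamp fell short in macrophage 7 and Mmp9 in macrophage 5. No call was possible for them, so the 0 calls of the dendritic cell and osteoclast lists do not speak of these genes. Zbtb46 and Xcr1 did not exceed 10.1 and 5.08 FPKM, and Irf4 and Clec9a 2.43 and 0.825, in any library. For the list of monocyte and monocyte-derived macrophage genes, 8 of 10 were tested and 6 called higher, and their sum was 306 FPKM in macrophage 7 and at least 944 in the other macrophage libraries. The part of these cells in the level of Plbd1 and Acp5 was not tested.

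Arsb encodes arylsulfatase B, which removes sulfate from dermatan and chondroitin sulfate, and was the 1 gene of the set called lower. It stood at 65.7, 69.0, 20.5 and 35.4 FPKM in microglia 1 to 4 and at 3.91, 6.17, 3.40 and 3.76 in macrophages 5 to 8. The lowest microglial library was thus more than 3 times the highest macrophage library. The difference was -3.07 ± 0.60 (SE, limma adjusted p = 0.0043, interval -4.31 to -1.83), and it was called without each single library. The call was lost with the term for Y-linked expression, at an adjusted p = 0.368 in limma and a difference of -2.91. Of 10 tested microglial identity genes, 4 were called lower (Gpr34, P2ry12, Sall1 and Siglech). The list summed to 2475 to 3444 FPKM in microglia and 701 to 2400 in macrophages. Of 7 Müller glia and astrocyte markers 3 were tested: Slc1a3 was called lower, from 4.12 to 18.2 FPKM in microglia against 1.2001 or less in macrophages, Vim was called higher, and Glul lay at 44.4 to 67.6 and 7.39 to 18.6 FPKM (limma adjusted p = 0.0504). Photoreceptor markers summed to 19.7 to 141 FPKM in microglia and 3.67 to 47.1 in macrophages (4 tested, 0 called by limma, 1 at an unadjusted p below 0.05), and of 3 tested erythroid markers 1 was called lower. The part of these cells in the level of Arsb was not tested.

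The promoters of these 3 genes are shown because they carry the called differences. They are taken from RefSeq (GRCm38.p6), from 250 bases before the annotated start to 50 bases from it, and were placed on mm9, the build of the files, by exact match. The Plbd1 promoter lies at chr6:136610365-136610664 on the minus strand of a gene that spans 136560592 to 136610414 of chromosome 6. The Acp5 promoter shown is that of the innermost of 3 annotated starts, chosen because the promoters of the other two hold none of the motifs searched, at chr9:21934993-21935292 on the minus strand (gene 21931171 to 21940190 of chromosome 9), and the Arsb promoter lies at chr13:94541384-94541683 on the plus strand (gene 94541634 to 94712971 of chromosome 13). Capitals mark matches on either strand to the motif CACGTG, to its longer form with a leading T (TCACGTG), or to a variant of that form spelled TCATGTG. These are forms of the E-box that transcription factors of the MiT family, among them Tfeb, Tfe3 and Mitf, are known to bind in lysosomal genes. A match to GAGGAAGT, a form of the motif of the macrophage factor PU.1, would be in capitals too.
Plbd1: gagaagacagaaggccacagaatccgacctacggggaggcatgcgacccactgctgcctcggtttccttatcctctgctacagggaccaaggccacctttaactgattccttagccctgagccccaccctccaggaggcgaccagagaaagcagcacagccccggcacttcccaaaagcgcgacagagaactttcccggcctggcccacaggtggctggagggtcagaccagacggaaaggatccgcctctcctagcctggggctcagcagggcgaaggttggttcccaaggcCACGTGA
Acp5: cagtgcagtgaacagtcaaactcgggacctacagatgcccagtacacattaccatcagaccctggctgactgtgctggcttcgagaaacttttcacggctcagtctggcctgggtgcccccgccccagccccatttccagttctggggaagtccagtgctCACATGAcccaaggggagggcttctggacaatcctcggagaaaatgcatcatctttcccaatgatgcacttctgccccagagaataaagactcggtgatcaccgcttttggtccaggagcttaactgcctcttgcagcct
Arsb: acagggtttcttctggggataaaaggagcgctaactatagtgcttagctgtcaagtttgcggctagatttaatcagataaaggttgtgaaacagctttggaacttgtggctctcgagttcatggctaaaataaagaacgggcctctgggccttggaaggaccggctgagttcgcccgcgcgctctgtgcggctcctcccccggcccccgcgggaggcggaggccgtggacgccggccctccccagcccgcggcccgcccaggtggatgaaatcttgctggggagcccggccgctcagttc
The Plbd1 promoter held CACGTGA 43 bases after the start, and the Acp5 promoter CACATGA, the reverse complement of TCATGTG, 90 bases before it. The Arsb promoter held none of the 4 motifs, which says only that these letters are not in this window.

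Across the set, RefSeq promoters were found for 31 of the 35 genes. TCACGTG or its reverse complement CACGTGA was in the promoters of 10 of the 31 (32.3%): Glb1, Gaa, Gla, Naglu, Arsa, Sgsh, Plbd1, Lamp1, Mcoln1 and Cln3. The same letters were in 4.29% of 27025 genes with a promoter and in 7.63% of the 6642 tested among them; CACGTG alone, which every TCACGTG contains, was in the same 10 members, in 8.09% of all genes and in 12.4% of tested genes. Lamp1 held 4 such sites, Gla, Mcoln1 and Cln3 2 each, and the other 6 genes 1. TCATGTG or CACATGA was in 5 of the 31 (Gla, Ppt1, Tpp1, Acp5 and Scarb2; 16.1%) and in 4.31% of all and 2.65% of tested genes, and GAGGAAGT or ACTTCCTC in 2 (Gusb and Gla; 6.45%) and in 3.69% and 4.38%. The windows below, with 10 bases on each side, show the sites of the promoters that hold several; capitals mark the match.
Lamp1, 62 bases before the start: gggcaagataTCACGTGgtccagcgcc
Lamp1, 45 before: gtccagcgccCACGTGAtgccgactgg
Lamp1, 28 before: tgccgactggCACGTGAccacatcacg
Lamp1, 16 before: cgtgaccacaTCACGTGcggaacggag
Mcoln1, 72 before: gtcgcgcttgTCACGTGttcagttcag
Mcoln1, 46 before: ggcgccccgcTCACGTGaccgcggcgc
Gla, 228 before: aagcgattgaTCACGTGagcatctacg
Gla, 195 before: gagatctcggTCACGTGagcaactctc
Cln3, 149 before: aaccctcaagCACGTGAtggaaggctc
Cln3, 122 before: acgggtactgTCACGTGacccccaacc
Holding the motif did not go with one direction of difference. The 10 genes with TCACGTG had a median log2 difference of -0.20 (range -0.77 to 6.22) and the 21 without it -0.26 (range -3.07 to 6.12), given as a description without a test.

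Among the activator and lipid transfer proteins, Psap was the gene that stood apart. Psap encodes prosaposin, the precursor of the saposins, which lift sphingolipids out of membranes so that hydrolases can reach them. It stood at 349, 342, 355 and 420 FPKM in microglia 1 to 4 and at 826, 1115, 706 and 710 in macrophages 5 to 8. The populations did not overlap, and the macrophage mean was 2.29 times the microglial mean. Nevertheless the difference of 1.17 ± 0.42 was not called (SE, limma adjusted p = 0.173, interval 0.31 to 2.04); it was called after quantile normalization (1.44, adjusted p = 0.00549), and the adjusted p of the other alternatives lay between 0.0539 and 1. Gm2a, the activator that hands GM2 ganglioside to hexosaminidase, stood at 54.4, 37.3, 62.4 and 64.0 FPKM in microglia and 111, 123, 47.9 and 116 in macrophages. Macrophage 7 lay among the microglial libraries and the other 3 above them, and the difference of 0.80 ± 0.50 was not called (limma adjusted p = 0.468, interval -0.23 to 1.83). Npc2, which carries cholesterol from lipids in the lumen to Npc1, averaged 204 ± 44.8 FPKM in microglia and 157 ± 67.4 in macrophages (SD, n = 4 each; not called, interval -1.39 to 0.52).

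The 10 glycosidases cut sugars from glycoproteins, glycolipids and glycosaminoglycans, and 0 were called by limma (0 at an unadjusted p below 0.05), with 8 differences negative and 2 positive. Over all tested genes 1.65% were called higher and 0.695% lower. At these shares 0 calls among 10 genes, or in the smaller groups below, is no result about the group. Of all tested genes 67.1% were positive, a share that depends on the processing. Hexa, the alpha subunit of beta-hexosaminidase, was the most abundant, at 274 ± 63.2 FPKM in microglia and 235 ± 85.3 in macrophages (SD, n = 4 each). Gusb, beta-glucuronidase, followed at 219 ± 34.4 and 186 ± 92.3. The largest difference of the group was that of Naglu, which removes N-acetylglucosamine from heparan sulfate: 52.8, 55.8, 42.8 and 73.7 FPKM in microglia and 36.1, 45.5, 27.9 and 22.8 in macrophages. Macrophage 6 overlapped with microglia 3 there, and the difference was -0.77 ± 0.51 (limma adjusted p = 0.494, interval -1.81 to 0.27). Man2b1, lysosomal alpha-mannosidase (64.2 ± 18.6 and 76.4 ± 10.9 FPKM), and Idua, alpha-iduronidase (6.76 ± 3.58 and 9.71 ± 3.01), were the 2 with positive differences. Fuca1 (alpha-fucosidase), Gaa (acid alpha-glucosidase), Glb1 (beta-galactosidase), Neu1 (sialidase) and Gla (alpha-galactosidase) averaged 68.4, 34.9, 27.3, 23.8 and 13.1 FPKM in microglia and 58.7, 23.2, 24.9, 15.5 and 9.90 in macrophages. Their differences lay between -0.53 and -0.18, each smaller than its SE, and those of Glb1, Gla and Fuca1 changed sign under at least 1 alternative. The Glb1 locus overlaps that of Tmppe, which stood at 4.28 FPKM or less, and the Idua locus that of Slc26a1, at 0.869 or less.

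Of the 4 sulfatases other than Arsb, 0 were called by limma (0 at an unadjusted p below 0.05). Galns, which acts on keratan sulfate, stood at 14.6, 0.270, 14.1 and 17.8 FPKM in microglia 1 to 4 and between 5.22 and 24.0 in macrophages. Ids, which opens the breakdown of heparan and dermatan sulfate, stood at 12.1, 0.0566, 7.34 and 2.73 FPKM in microglia and 4.35, 3.33, 0.184 and 5.90 in macrophages. Microglia 2 was the lowest library for both. Arsa, which acts on sulfatide, was listed at 0 in microglia 2 and did not exceed 7.58 FPKM anywhere, and Sgsh, heparan sulfamidase, did not exceed 4.10. Sgsh averaged 1.44 FPKM over the 8 libraries, the least of the 35 genes, and its libraries overlapped (0.88 ± 0.52, limma adjusted p = 0.439, interval -0.19 to 1.96; -0.0070 after quantile normalization); its locus overlaps that of Card14, which stood at 0.136 FPKM or less.

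Lipid hydrolases and deacylases showed differences of both signs. Smpd1, acid sphingomyelinase, which makes ceramide from sphingomyelin, stood at 10.9, 41.3, 8.22 and 14.2 FPKM in microglia and 2.08, 9.504, 2.95 and 2.65 in macrophages. Macrophage 6 lay just above microglia 3, and microglia 2 was far above the rest. The difference of -1.81 ± 0.69 was not called (limma adjusted p = 0.213, interval -3.24 to -0.38), except after quantile normalization (-2.19, adjusted p = 0.0429; the other alternatives gave 0.101 to 1), and was -1.35 without microglia 2. Lipa, the acid lipase that frees cholesterol from lipoprotein cholesteryl esters, stood at 27.1, 27.3, 8.34 and 31.0 FPKM in microglia and 45.6, 77.2, 26.7 and 39.9 in macrophages. Only macrophage 7 lay within the microglial range, at a difference of 1.03 ± 0.57 (limma adjusted p = 0.407, interval -0.14 to 2.21). Ppt1, a thioesterase that strips palmitate from proteins, averaged 122 ± 30.7 FPKM in microglia and 73.9 ± 23.9 in macrophages (not called, interval -1.70 to 0.26). Asah1, acid ceramidase, averaged 117 ± 42.7 and 142 ± 84.0 FPKM, a difference (0.19) that turned negative under 4 alternatives.

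Tpp1, a tripeptidyl peptidase of the lumen, stood at 98.6, 57.2, 138 and 110 FPKM in microglia and 43.5, 92.7, 28.2 and 32.98 in macrophages. Macrophage 6 alone reached into the microglial range. The difference was -1.11 ± 0.52 (limma adjusted p = 0.319, interval -2.18 to -0.03), with an adjusted p between 0.0515 and 1 over the alternatives.

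Of the 8 membrane proteins 0 were called by limma (0 at an unadjusted p below 0.05), with 4 differences on each side of 0. Lamp1, a main glycoprotein of the lysosomal coat, stood at 545, 537, 626 and 565 FPKM in microglia and 348, 669, 280 and 339 in macrophages. Its microglial libraries were the closest of any gene of the set (SD 0.10 on the log2 scale), 3 macrophage libraries lay below them and macrophage 6 above, and the difference was -0.56 ± 0.44 (limma adjusted p = 0.583, interval -1.46 to 0.34). Laptm5, a transmembrane protein of blood cell lysosomes, averaged 502 ± 104 FPKM in microglia and 483 ± 136 in macrophages (-0.08 ± 0.43, interval -0.97 to 0.81). Lamp2, partner of Lamp1 and a receptor of chaperone-mediated autophagy, averaged 156 ± 58.9 and 132 ± 69.2 FPKM, and Scarb2, which escorts glucocerebrosidase to lysosomes, 57.9 ± 15.5 and 69.0 ± 42.8. Npc1, the cholesterol exporter, averaged 9.53 ± 2.88 and 14.9 ± 8.03 FPKM; its locus overlaps that of 3110002H16Rik, which stood between 4.95 and 10.9 FPKM in macrophages and at 6.50 or less in microglia. The calcium channel Mcoln1 was the most variable gene of the set in microglia (SD 2.099 on the log2 scale), at 24.0, 0, 2.24 and 13.1 FPKM against 7.99, 19.5, 11.2 and 11.8 in macrophages. Ctns, the cystine exporter (5.56, 0.189, 2.13 and 7.02 FPKM in microglia; 6.05, 17.0, 2.75 and 8.14 in macrophages), was likewise lowest in microglia 2. Cln3, a membrane protein named for Batten disease, was highest there instead, at 52.7 FPKM against 7.47 to 17.4 in the other microglial libraries and 10.7 to 21.5 in macrophages.

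The order of the genes within a library does not depend on how libraries are scaled, since FPKM is per length and every gene of a library shares 1 scale. Ranks were looked at after the values were seen and carry no test. Psap was the third of the 35 in each microglial library and the first in each macrophage library, while Lamp1 and Laptm5 held places 1 and 2 in microglia and 2 and 3 in macrophages. Psap made up 10.6% to 12.4% of the summed FPKM of the 35 genes in microglia and 21.2% to 26.4% in macrophages. Its ratio to Lamp1 was 0.64, 0.64, 0.57 and 0.74 in microglia and 2.37, 1.67, 2.52 and 2.095 in macrophages. Lamp1 itself had a negative difference (-0.56, not called), so this contrast is wider than that of Psap alone. Acp5 stood at places 31 to 34 in microglia and 6 to 10 in macrophages, Plbd1 at 32 to 35 and 4 to 17, and Arsb at 11 to 19 and 30 to 33. Ppt1 (8 to 10 against 12 to 13), Tpp1 (7 to 12 against 15 to 16), Naglu (13 to 15 against 16 to 20) and Smpd1 (16 to 28 against 30 to 34) also held lower places in every macrophage library. Part of this follows from the rise of Acp5 and Plbd1, since a gene that either passes loses a place by that alone. Places without Acp5 and Plbd1 were not computed, so these shifts are not separate from those of the called genes. Hexa stood at 4 or 5 in all 8. Together the 35 genes took 0.80% to 1.14% of the FPKM sum in microglia and 1.03% to 1.29% in macrophages, ranges that overlap, and without Psap 0.71% to 0.999% and 0.81% to 0.95%.

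**Figure D3:**
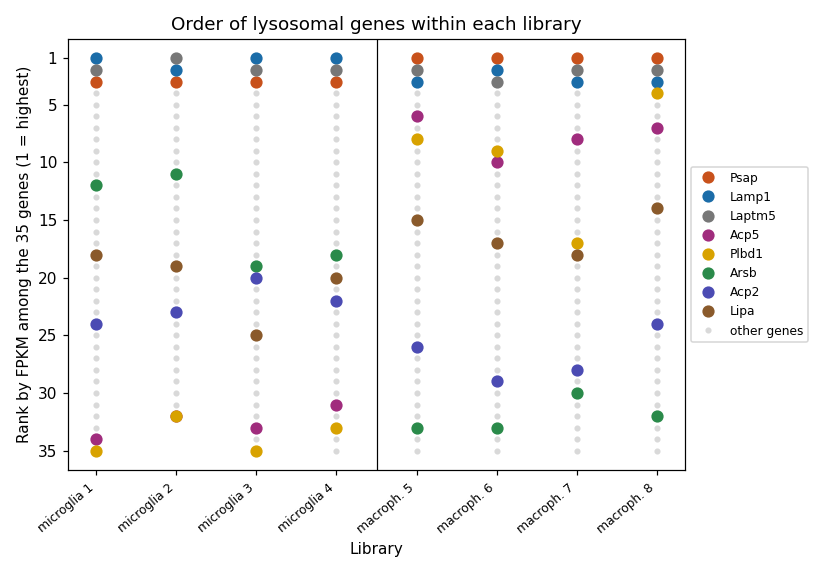
Rank by FPKM among the 35 genes (1 is the highest) in each of the 8 libraries, microglia left and macrophages right of the line, with 8 genes in colour and the others in grey; in microglia 2, Acp5 and Plbd1 share place 32 with other genes listed at 0. Psap is at place 3 in the 4 microglial libraries and at place 1 in the 4 macrophage libraries, and Arsb is at places 11 to 19 in microglia and 30 to 33 in macrophages.

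Many genes of the set were high or low together in the same library, and scaling the libraries changed which genes overlapped. Macrophage 6 was the highest macrophage library for 29 of the 35 genes and macrophage 7 the lowest for 18, and these libraries also had the largest and smallest FPKM sums, 512049 and 207077. After division by median-of-ratios size factors, which were 2.04 for macrophage 6 and 0.705 for macrophage 7, macrophage 6 was highest for 6 genes and macrophage 7 for 24. As deposited, libraries of the populations did not overlap for 3 genes higher in macrophages (Psap, Plbd1 and Acp5), against a background of 5.69% of tested genes, and for 2 lower (Arsb and Acp2), against 1.95%. After the scaling, Gm2a made the higher genes 4 of 35, against 5.74%, and Lamp1, Naglu, Ppt1, Smpd1 and Tpp1 made the lower genes 7 of 35, against 4.6%. Lamp1, for example, stood at 511 to 638 scaled FPKM in microglia and 274 to 397 in macrophages, and Tpp1 at 68.0 to 127 and 26.7 to 45.4. The margin was narrow for Naglu, at 39.6 in both microglia 3 and macrophage 7, and the scaling left the calls at Plbd1, Acp5 and Arsb.

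**Figure D4:**
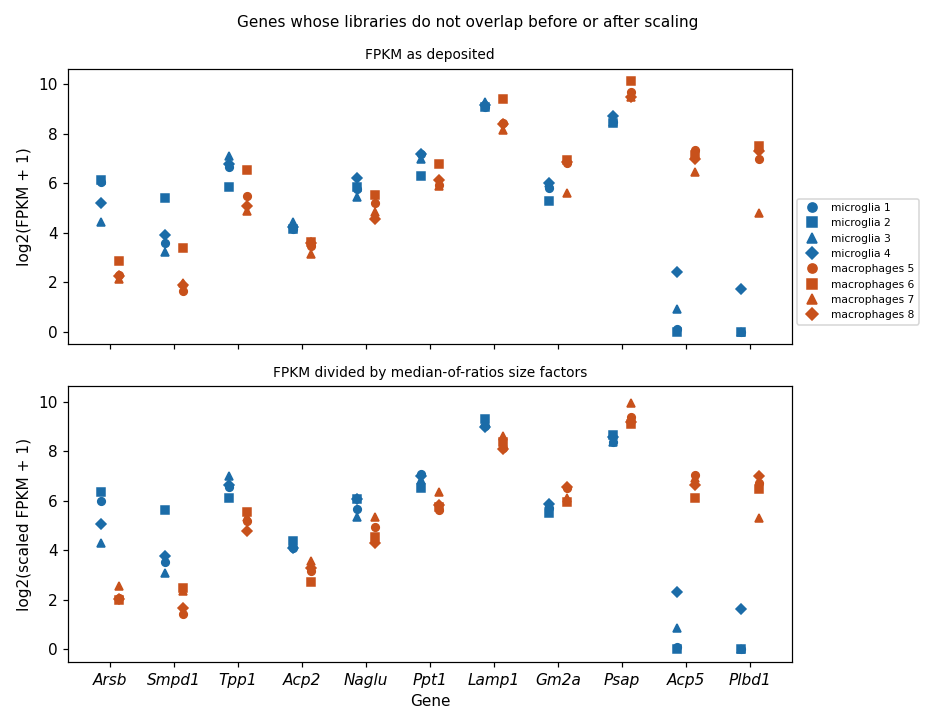
Level of the 11 genes whose populations did not overlap before or after scaling, as log2(FPKM + 1) in the upper panel and as log2(scaled FPKM + 1) in the lower, with a symbol for each library. In the upper panel macrophage 6 (orange square) reaches into the microglial range for Smpd1, Tpp1, Naglu and Ppt1 and above it for Lamp1; in the lower panel it lies with the other macrophage libraries.

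Among microglia, library 2 was the lowest for 17 of the 35 genes and the highest for 9, library 3 the lowest for 12 and the highest for 7, and library 4 the lowest for 3 and the highest for 16. In microglia 2, 8 genes stood below 1 FPKM, 4 of them listed at 0 (Arsa, Mcoln1, Acp5 and Plbd1). At its depth, 1 fragment on a transcript of 2 kb is worth 0.0268 FPKM, and no gene of the set has a failed or low-data status in any library. In microglia 1, 3 and 4, between 0 and 3 genes of the set stood below 1 FPKM. Without microglia 2 and 3 the differences of Plbd1, Acp5 and Arsb were 5.79, 5.71 and -3.24, all called, while those of Galns and Mcoln1 turned from 0.39 and 1.16 to -0.59 and -0.53.

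The other lysosomal genes were examined through lists that hold none of the 35. Of 12 tested cathepsins and legumain 3 were called lower and 0 higher, with a median difference of -0.45. Over all tested genes 0.695% were called lower and 1.65% higher. Ctsd, cathepsin D, which is activated at acid pH, stood at 12527, 9296, 14608 and 16462 FPKM in microglia and 2139, 4293, 3932 and 1750.3 in macrophages (-2.20 ± 0.44, limma adjusted p = 0.00464). Ctsl stood at 386, 201, 354 and 309 against 45.0, 95.2, 36.6 and 44.7 FPKM, and Ctsf at 23.2, 25.03, 34.5 and 37.9 against 1.98, 4.91, 2.55 and 2.14. For each of these proteases every macrophage library lay below every microglial one, as for 1.95% of all tested genes. Of 20 other hydrolases 0 were called by limma (3 at an unadjusted p below 0.05, median -0.49), and 15% of all tested genes had such an unadjusted p.

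Of 19 vacuolar ATPase genes, whose products acidify the lumen, 0 were called by limma (3 at an unadjusted p below 0.05, median -0.59). That unadjusted count, like that of the other hydrolases, is near the 15% of all tested genes. Of 19 other membrane proteins 0 were called (2 at an unadjusted p below 0.05; median 0.10), and Cd68, the macrophage sialomucin, stood at 913, 1224, 827 and 1079.9 FPKM in microglia and 530.2, 1265, 537 and 338 in macrophages. Of 9 genes that tag, sort or mature lysosomal enzymes 0 were called (2 at an unadjusted p below 0.05; median 0.13). Of 16 transcription factor and nutrient sensing genes 0 were called, and 0 had an unadjusted p below 0.05 (median -0.13). In that list Tfeb stood at 3.41 to 13.5 FPKM in microglia and 8.96 to 15.9 in macrophages, Tfe3 at 0.0325 to 21.2 and 2.27 to 17.3, and Mitf at 0.577 to 3.79 and 1.28 to 2.71. All of these medians lay below the 0.37 of all tested genes, a figure that itself moved to -0.03 after quantile normalization.

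**Figure D5:**
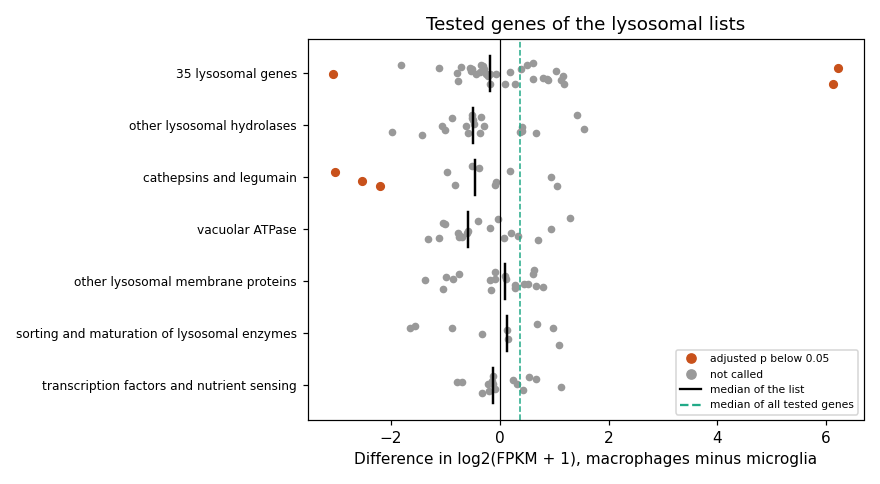
Difference in log2(FPKM + 1), macrophages minus microglia, of each tested gene of the 35 and of the 6 other lysosomal lists; orange points have an adjusted p below 0.05, black bars are list medians and the dashed line is the median of all tested genes. The called genes are Plbd1 and Acp5 on the right, and Arsb, Ctsd, Ctsf and Ctsl on the left.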

How the data were processed

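RNA of 8 libraries was compared, 4 of microglia and 4 of infiltrating macrophages, grouped by the labels. The submitters' processing notes name mm9, Cufflinks 2.1.1 and bcl2fastq 1.8.4; aligner and annotation: not given in the sources used here. The authors deposited 1 table of gene FPKM per library, per the file headers, with 23021 rows. Rows sharing a symbol were summed, and 9 symbols with a failed estimate in any library, none of them a member, were left out. FPKM are not counts, so no count test was run; strand is not stated. The members and gene lists were chosen with earlier results of these data known, and all 35 members are named. Of each other lysosomal list up to 3 called genes per direction, those with the highest mean FPKM, are named; Cd68, Tfeb, Tfe3 and Mitf, and the marker genes, were named after their values were seen.

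limma 3.58.1 in R 4.3.3 was fitted on log2(FPKM + 1) with an intensity trend and no covariate, two-sided, over the 9352 genes that reached 1 FPKM in 4 or more libraries. Alternatives were a pseudocount of 0.1, no filter, a filter of 5 FPKM, upper-quartile, median-of-ratios and quantile scaling, no trend, a term for Y-linked expression, and libraries left out. On 5 simulated sets of this comparison's 9352 genes, the fit recovered 25.8% of genes changed by 2 log2 units and 90.6% of those changed by 4. Depth was estimated from the most frequent low FPKM of genes with 1 transcript of at least 800 bases in GENCODE, with an assumed fragment of 150 bases, and is approximate. For Tfeb, Tfe3, Dcstamp and Ocstamp the files' older symbols Tcfeb, Tcfe3, Tm7sf4 and 4833422F24Rik were matched through RefSeq synonyms. Tables used Python 3.11.15, pandas 2.3.3 and numpy 2.4.6. A result on 1 gene of the other lysosomal lists is not reported here.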

Additional observations from a re-analysis of the deposited data

Results flagged for a closer look

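In 8 of the 70 groups of 4 libraries examined (35 genes in 2 populations), 1 library lay far from the other 3 on the log2(FPKM + 1) scale, by Dixon's criterion for the gap relative to the range. A chance rate of about 1 in 20 groups holds for independent groups of normal values. These groups share the same 8 libraries, so their count cannot be weighed against that rate. In microglia 2, Galns was low, at 0.270 FPKM against 14.1 to 17.8, and Scarb2 was high, at 80.9 against 47.8 to 52.2. In microglia 3, Idua was low, at 1.44 FPKM (1.435) against 8.10 to 9.16, and Lipa was low, at 8.34 against 27.1 to 31.0. In microglia 4, Plbd1 stood at 2.30 FPKM where the other 3 were listed at 0, a case in which any value above 0 meets the criterion, so it says nothing against the chance rate. Among macrophages, Gaa was high in macrophage 5, at 28.4 FPKM against 21.2 to 21.7, Plbd2 was high in macrophage 6, at 47.9 against 20.6 to 22.7, and Gm2a was low in macrophage 7, at 47.9 against 111 to 123.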

How the results depend on the processing

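No paired analysis was possible because the labels number the microglia 1 to 4 and the macrophages 5 to 8, so the groups share no replicate number. Of 592 values of single members under 17 alternatives, 563 kept their direction and their side of the threshold. Calls over all genes, 219 as reported, were 136 with a pseudocount of 0.1, 50 without a filter, 132 with a filter of 5 FPKM and 25 with the Y-linked term, and between 78 and 259 with 1 library left out (84 without macrophage 5, 111 without macrophage 6, 78 without macrophage 8). Higher calls were 70.3% of all calls as reported, and 59.5%, 55.4% and 53.4% after upper-quartile, median-of-ratios and quantile scaling; they were 29.7% without macrophage 6, where lower calls outnumbered higher ones, and 54.8% and 55.1% without macrophage 5 and 8. Members called lower were 1 as reported, 2 after quantile normalization and 0 with the Y-linked term; in every fit with 1 library left out the count was 1, and members called higher were 2. The median difference of the members ran from -0.43 to 0.06 and lay 0.10 to 0.73 below that of all tested genes (-0.7329 to -0.0951).

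Reversed differences, none of them called, were as follows. With the Y-linked term Gla was 0.0725, Galns -0.29, Asah1 -0.0577 and Plbd2 -0.0453. After quantile normalization Galns was -0.22, Sgsh -0.0070 and Laptm5 0.25. After median-of-ratios scaling Asah1 was -0.0744 and Scarb2 -0.16, and after upper-quartile scaling Scarb2 was -0.0027. Without microglia 2 and 3, Galns was -0.59 and Mcoln1 -0.53. With 1 library left out, Glb1 ran from -0.5298 to 0.1026, Gla from -0.7441 to 0.0085, Fuca1 from -0.6405 to 0.0676, Galns from -0.5288 to 0.7662, Ids from -0.9979 to 0.2536, Asah1 from -0.1623 to 0.4842, Scarb2 from -0.2619 to 0.3892, Laptm5 from -0.2319 to 0.0567 and Cln3 from -0.6098 to 0.2786. The cause of these changes was not tested. In the simulated sets, 25.8% of genes changed by 2 log2 units were recovered. That share covers all tested genes and was not computed for the 35 alone. Of the 32 members not called, 23 had a 95% confidence interval within 2 log2 units either way.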
